A study of Mus musculus with 6 samples.

Results

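Mutually exclusive exons are a pair of neighboring exons of which a transcript is thought to keep one and leave out the other. The members described here are the mutually exclusive exon (MXE) events whose exon lengths differ by a multiple of 3 bases, zero included, so that the exons after the pair are read in the same frame whichever of them is kept. They were chosen from the exon coordinates alone and numbered 3909 of the 10208 MXE events in CD4+ T cells (38.3%), in 2085 genes and 3293 different exon pairs. The other 6299 events are called frame-shifting below. RNA was sequenced from CD4+ T cells of spleen and lymph nodes of 3 cKO mice, in which both U5-52K alleles were floxed (f/f) and the CD4-Cre transgene was present (tg), and 3 Control mice. Of the Control mice, CTRL_1.2 and CTRL_3.4 carried the transgene with 1 floxed allele (wt/f), and CTRL_5.6 was f/f without it (CD4-Cre-). Cre stood under the Cd4 promoter, and the Control mice differed among themselves in both alleles and Cre. Organs for cell isolation came from male mice of 8 to 12 weeks. CD2BP2/U5-52K, encoded by Cd2bp2, is a protein of the U5 snRNP, and the comparison asks how its loss changes the choice of exon.

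Mutually exclusive exons are known from genes in which each exon of the pair encodes another version of the same protein segment, as in pyruvate kinase M, where one exon gives the PKM1 and the other the PKM2 enzyme. A U5 snRNP holds the exon ends together during the joining step of splicing. In T cells, the best known exon choice is that of Ptprc, which encodes the phosphatase CD45 and whose extracellular exons are left out to differing degrees as cells mature.

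The inclusion level Ψ of an event is the share of the form with the exon that comes first in transcription, in percent, after the reads of each form were divided by the form's effective length. ΔΨ is cKO minus Control in points, so that a negative value means less of the first exon and more of the second in cKO. The exons of a pair were named by their lengths, first/second. Counts came from junctions and exon bodies, so a transcript that holds both exons adds reads to both forms, and an ordinary pair of neighboring exons lies near 50%. Of the members, 3770 (96.4%) had an annotated transcript with both exons and only 133 (3.402%) had both exons annotated but never together. Each condition has 3 values per event without library names. They are given in file order, and which mouse each belongs to is not known.

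The exon sequences of 4 pairs with some of the firmest differences are shown first, because their exons are short enough to be seen whole (GENCODE M21, GRCm38, 5′ to 3′, with the last 3 bases of each exon, which form the exon side of the 5′ splice site, in capitals). Each exon lies within the coding sequence of its gene. Mdm4 is on the minus strand at chr1:133009137-133009192 (56 b) and chr1:133004654-133004721 (68 b), Inpp4b on the plus strand at chr8:81770808-81770924 (117 b) and chr8:81844456-81844506 (51 b), Cdc123 on the minus strand at chr2:5833081-5833113 (33 b) and chr2:5823102-5823197 (96 b), and Foxn3 on the minus strand at chr12:99341422-99341534 (113 b) and chr12:99291237-99291301 (65 b).
Mdm4 56-b exon: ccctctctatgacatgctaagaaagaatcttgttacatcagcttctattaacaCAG
Mdm4 68-b exon: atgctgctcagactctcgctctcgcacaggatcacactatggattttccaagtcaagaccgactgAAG
Inpp4b 117-b exon: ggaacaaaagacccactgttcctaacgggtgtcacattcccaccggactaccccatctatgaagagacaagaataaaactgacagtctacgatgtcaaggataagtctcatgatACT
Inpp4b 51-b exon: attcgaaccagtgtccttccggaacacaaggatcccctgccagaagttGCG
Cdc123 33-b exon: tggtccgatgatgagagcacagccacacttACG
Cdc123 96-b exon: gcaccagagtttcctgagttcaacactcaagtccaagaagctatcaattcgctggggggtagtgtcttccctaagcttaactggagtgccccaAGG
Foxn3 113-b exon: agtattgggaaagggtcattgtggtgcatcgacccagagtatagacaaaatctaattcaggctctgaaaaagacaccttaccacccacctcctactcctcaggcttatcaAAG
Foxn3 65-b exon: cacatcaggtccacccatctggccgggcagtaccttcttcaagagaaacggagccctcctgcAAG
The Mdm4 and Foxn3 exons all end in AG, as did 58.0% of the first and 55.5% of the second exons over the 3904 members with both sequences, while the Inpp4b and Cdc123 exons end in other bases.

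For the classical kind of pair, with exons of equal length that are similar in sequence, the 2 Pkm exons and the 2 Mapk8 exons are shown with the bases that differ between the exons of a pair in capitals. Pkm lies on the plus strand at chr9:59675029-59675195 and chr9:59675568-59675734 (167 b each), and Mapk8, which encodes the kinase JNK1, on the minus strand at chr14:33390673-33390744 and chr14:33390242-33390313 (72 b each). No annotated transcript of either gene holds both exons.
Pkm first exon: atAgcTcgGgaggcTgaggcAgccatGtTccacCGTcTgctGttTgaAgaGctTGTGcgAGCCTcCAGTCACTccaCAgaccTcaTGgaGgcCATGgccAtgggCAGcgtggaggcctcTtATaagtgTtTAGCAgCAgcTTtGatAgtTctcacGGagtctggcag
Pkm second exon: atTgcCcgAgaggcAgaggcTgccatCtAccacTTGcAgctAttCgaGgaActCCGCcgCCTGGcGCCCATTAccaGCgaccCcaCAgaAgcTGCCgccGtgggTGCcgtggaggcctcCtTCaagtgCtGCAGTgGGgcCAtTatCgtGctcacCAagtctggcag
Mapk8 first exon: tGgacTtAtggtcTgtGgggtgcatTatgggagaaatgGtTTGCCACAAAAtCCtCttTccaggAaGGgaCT
Mapk8 second exon: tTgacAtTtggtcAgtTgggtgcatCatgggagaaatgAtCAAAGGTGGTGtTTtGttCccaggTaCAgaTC
The Pkm exons differ at 64 positions (61.7% identical) and the Mapk8 exons at 27 (62.5% identical). Of the 145 members with exons of equal length, 50 were at least 50% identical, and their median identity was 35.3%.

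Of the 3909 members, 3627 in 1940 genes were tested, since each condition averaged 20 reads or more there. With the thresholds of the study's methods, an FDR under 0.01 and a |ΔΨ| of at least 10 points, 10 members in 9 genes were called (0.276%), against 0.25% of all 9608 tested MXE events, so the share was close to that of the whole file. The FDR is the Benjamini-Hochberg adjusted p of a quasi-binomial model with a dispersion moderated by limma. Under limma on the logit of Ψ, 0 members passed an FDR of 0.01, and the smallest FDR was 0.0392, with 385 members at an unadjusted p under 0.05 against 472 in the quasi-binomial model. The calls below therefore hold for the count model only, and the values of each library are given beside them.

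Mdm4, which encodes an inhibitor of p53, had the largest difference among the called pairs. Its Ψ was 85.7, 92.0 and 94.4% in cKO, against 73.5, 63.7 and 75.2% in Control. Every cKO value lay above every Control value, and the share of the 56-b exon rose by 19.9 points (90.7 ± 4.46% in cKO, 70.8 ± 6.22% in Control, SD, n = 3 each, FDR = 1.45e-05), on a mean of 211 reads per library in cKO and 164 in Control. For each exon of a named pair, the skipped exon (SE) event with the most reads is given. Further SE events of the same exon, with other flanking exons, are not given. In these SE events, the 68-b exon was the one that changed. This exon was included at 36.8, 20.4 and 19.1% in cKO, against 57.6, 74.6 and 56.6% in Control, a fall of 37.5 points, while the 56-b exon was at 99.5% or above in all libraries. In mouse and human, leaving out an exon of Mdm4 is known to give a short protein.

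Inpp4b is a phosphatase of inositol lipids. Its Ψ was 25.2, 24.3 and 27.4% in cKO, against 11.4, 11.4 and 10.6% in Control, a rise of 14.5 points with groups far apart (FDR = 1.07e-07). In the best covered of 7 tested SE events, inclusion of its 51-b exon fell to 84.2, 85.3 and 82.3% in cKO, against 95.2, 95.2 and 93.2% in Control. Eefsec, the elongation factor that brings selenocysteine to the ribosome, moved the same way (165/660 b at chr6:88355483-88355647 and chr6:88297577-88298236, minus strand). Its Ψ was 19.2, 11.9 and 18.3% in cKO, against 5.52, 4.42 and 6.50% in Control (ΔΨ = 10.96 points, FDR = 0.000978), and its 660-b exon was included 11.9 points less in the SE event. For Eefsec the call was lost without Control replicate 2 (10.4 points, FDR = 0.0372) and without cKO replicate 3 (10.1 points, FDR = 0.0134), and without cKO replicate 1 the difference was 9.59 points. Without the division by form length it was 4.93 points, under the limit for a call. Another event of the same Eefsec exons, with another flanking exon and more reads (a mean of 1167 in cKO and 1044 in Control), had 75.5, 69.6 and 73.0% in cKO, against 70.5, 71.9 and 72.0% in Control, where the groups overlapped (ΔΨ = 1.26 points, FDR = 0.840).

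Cdc123, which helps assemble the translation initiation factor eIF2, fell in 2 events that share the same exon pair and many of the same reads. In the better covered of these 2 events Ψ was 69.5, 75.9 and 75.4% in cKO, against 92.4, 89.0 and 90.4% in Control, so the groups stood well apart (ΔΨ = -17.0 points, FDR = 2.85e-06, and -17.3 points in the second event). Its 33-b exon was included 9.47 points less in the SE event. A further event of the same Cdc123 exons, with other flanking exons and more reads (a mean of 1318 in cKO and 861 in Control), was not called, at 23.2, 24.8 and 24.8% in cKO, against 30.1, 29.4 and 27.7% in Control (ΔΨ = -4.78 points, FDR = 0.124). Foxn3, a forkhead transcription repressor, had a Ψ of 62.5, 63.8 and 62.0% in cKO, against 75, 72.9 and 77.4% in Control (ΔΨ = -12.3 points, FDR = 7.34e-05). Both Foxn3 exons were included at 97.4% or above in all libraries in their best covered SE events, so these did not show the difference. The 113-b exon had 2 tested SE events. Mdm4, Inpp4b, Cdc123 and Foxn3 were called in each of the 6 fits that left out 1 library.

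The other called pairs rested more on single libraries. Rrp36, a factor of ribosomal RNA processing known from yeast, had a Ψ of 87.3, 85.2 and 89.2% in cKO, against 99, 100 and 98.4% in Control (142/67 b, ΔΨ = -11.9 points, FDR = 0.000738). It kept its call in 5 of 6 fits and had an FDR of 0.0168 without Control replicate 2, and without the division by form length its difference was -9.17 points, under the limit for a call. The best covered SE event of each Rrp36 exon, of 2 tested, did not show the difference. Its 142-b exon was at 99.2% or above and its 67-b exon at 95.5% or above in every library (FDR = 0.692 and 0.726). Zhx1, a transcription repressor with zinc fingers and homeoboxes, had a Ψ of 52.4, 49.8 and 43.0% in cKO, against 68.4, 63.1 and 73.2% in Control (126/2859 b, ΔΨ = -19.8 points, FDR = 0.00243). Its 126-b exon is untranslated, so the frame has no meaning there, and in the SE event this exon was at 14.5, 16.1 and 13.6% in cKO, against 29.8, 25.5 and 32.9% in Control. The Zhx1 call was lost without cKO replicate 3 (FDR = 0.0243), Control replicate 1 (0.0143) or Control replicate 3 (0.0442). Its exons differ most in length among the called pairs, and without the division by form length the difference was -8.70 points, under the limit for a call. Ttc13, a protein with tetratricopeptide repeats, had a Ψ of 18.1, 22.4 and 24.2% in cKO, against 30.7, 32.0 and 41.9% in Control (66/111 b, ΔΨ = -13.3 points, FDR = 0.00711), and was called in 2 of the 6 fits. Its FDR was 0.0556 without cKO replicate 1, 0.0131 without cKO replicate 2, 0.0197 without Control replicate 2 and 0.127 without Control replicate 3.

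Ms4a4b, a membrane protein of T cells of the MS4A family, was the only called pair whose conditions overlapped. Its Ψ was 52.4, 63.8 and 61.3% in cKO, against 50.7, 64.2 and 22.3% in Control (57/126 b, FDR = 0.00796), and the difference of 13.4 points was 1.71 points without Control replicate 3 (FDR = 0.916). The FDR was 0.0297 without cKO replicate 1, 0.0178 without cKO replicate 3 and 0.0516 with a dispersion prior over all tested events. With a mean of 12731 reads per library in cKO and 12778 in Control, its moderated dispersion of 130 was far above the prior of 1.95. Libraries of 1 condition thus differed much more than in other events. Moderation had drawn the event's own, still higher dispersion toward the prior, which lowered its p. In the best covered SE event of each exon, of 2 tested, the 57-b exon was at 98.6% or above and the 126-b exon at 99.99% or above in every library. Both exons were thus nearly always kept in these SE events, which did not show the wide range of Ψ. The 57-b exon differed there by -0.462 points (FDR = 0.000133).

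**Figure D1:**
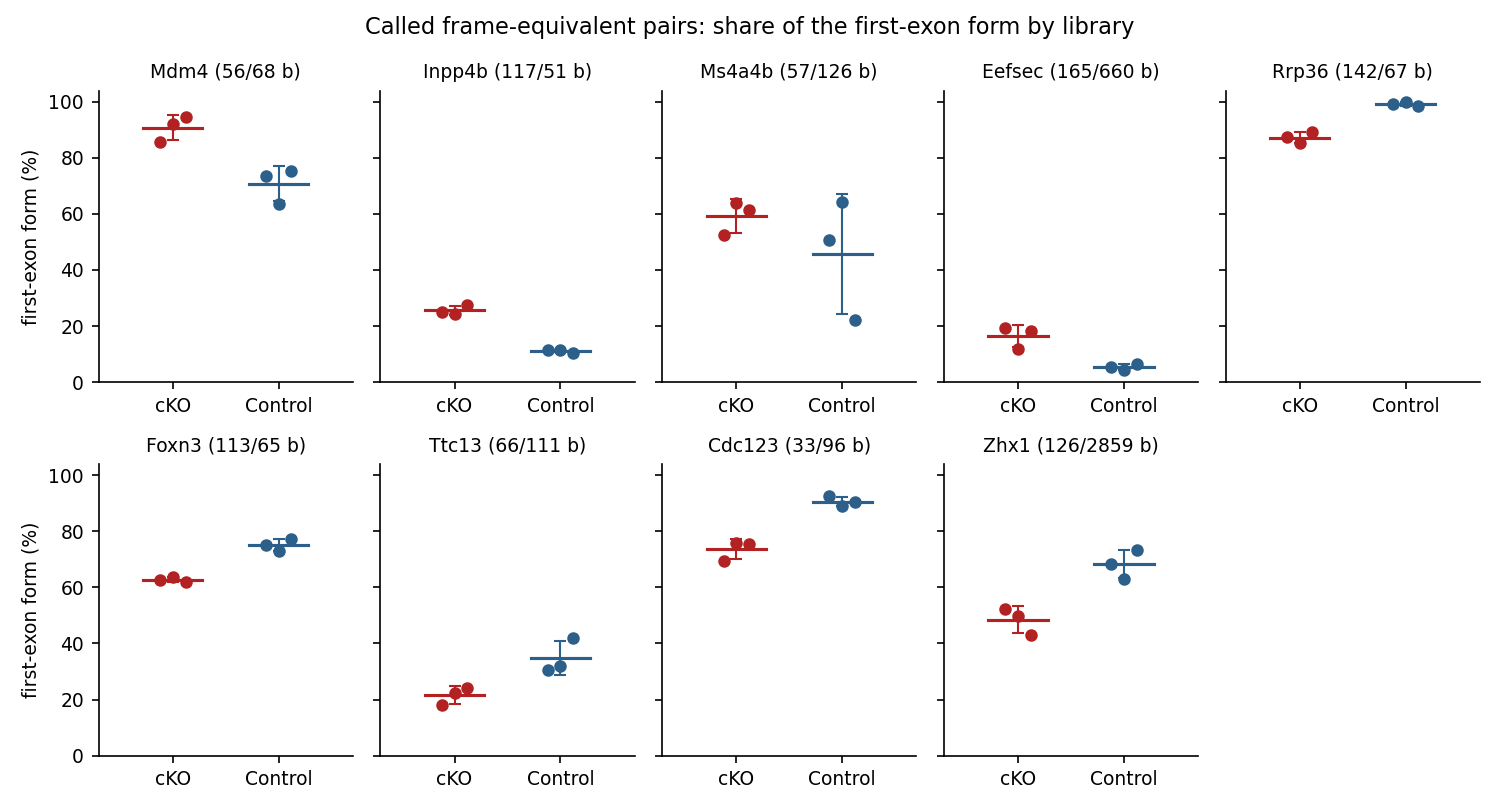
Share of the first-exon form (Ψ, %) in each library for the 9 called exon pairs, with cKO on the left and Control on the right of each panel; points are libraries, horizontal lines means and error bars SD (n = 3 each). The groups do not overlap in any pair but Ms4a4b, where Control runs from 22.3 to 64.2%, and Mdm4 has the widest gap between the means (90.7% in cKO, 70.8% in Control).

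At an FDR under 0.01 with no limit on the size, 71 members in 43 genes passed (34 with a higher and 37 with a lower Ψ), which is 1.96% of the members tested, against 1.43% of all tested MXE events. Of these, 61 differed by less than 10 points, the median |ΔΨ| was 5.21 points with a range of 0.442 to 19.9, and in 69 of 71 the conditions did not overlap. Conditions that did not overlap were common, with 575 members (15.9%) against 15.8% of all tested MXE events, so this alone sets no pair apart. Of the 71, 33 events in 19 genes passed in all 6 fits that left out 1 library. Overlapping events share exons and reads, and Ptprc alone gave 10 of the 71, Sp100 8 and Arhgap15 4. When each exon pair was tested by its event with the most reads only, 42 pairs passed.

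Among genes of T cell receptor, costimulation and signaling, 137 member events in 45 genes were tested and 18 in 5 genes passed (13.1%, against 1.96% of all tested members, with 8 higher, 10 lower and none called). Of the 18, 10 were overlapping events of Ptprc and 4 of Arhgap15. The list was chosen with earlier results of these data known, among them the Ptprc exons reported by the paper, so its share is a description only. The list had a median |ΔΨ| of 0.899 points, against 1.54 points over all tested members. This median depends on depth, at 3.52 points for members with 20 to 100 reads and 0.723 points with 1000 or more. The part of depth in the value of the list was not tested. Cd6, a T cell surface receptor that binds CD166, had the smallest FDR of all members. Its Ψ was 88.4, 88.5 and 87.7% in cKO, against 95.2, 94.9 and 96.0% in Control (69/312 b, ΔΨ = -7.16 points, FDR = 7.00e-14), and without the division by form length the difference was -12.7 points, which would be called. The shift was small, but all cKO values lay below all Control values. In the SE event the 312-b exon was at 89.4, 94.9 and 90.6% in cKO, against 81.4, 83.4 and 73.6% in Control, which did not pass the test (FDR = 0.192).

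Ptprc, which encodes CD45, had 10 passing events over the stretch of its exons of 24, 129, 147, 141, 72 and 24 b, in transcription order. In the 24/147 pair with the smallest p, Ψ was 92.2, 95.1 and 92.8% in cKO, against 86.3, 86.3 and 83.8% in Control (ΔΨ = 7.86 points, FDR = 4.98e-09). The form with the 147-b exon thus had a smaller share in cKO. Without the division by form length this difference was 11.6 points, which would be called. The widest shift was that of the 24/72 pair, at 46.5, 54.3 and 49.3% in cKO, against 44.4, 42.0 and 34.6% in Control (ΔΨ = 9.72 points). The SE events gave the same picture exon by exon. The 129-b exon was included at 0.614, 0.597 and 0.584% in cKO, against 1.59, 1.89 and 2.55% in Control, and the 141-b exon at 1.99, 1.92 and 2.18% in cKO, against 4.25, 3.51 and 5.59% in Control. The 147-b exon was at 30.7, 27.6 and 33.1% in cKO, against 34.3, 35.8 and 46.6% in Control, and the 72-b exon at 78.4, 72.4 and 76.4% in cKO, against 82.0, 82.5 and 88.7% in Control. All 4 exons were thus lower in every cKO library than in any Control library. B cells are known for long CD45 forms that keep these exons, and the summed level of 4 B cell markers (Cd79a, Cd79b, Ms4a1 and Pax5, none at 0) was 2786 to 5291 normalized counts in cKO and 6213 to 9154 in Control. The paper reports fewer naive and more effector memory cells among CD4+ T cells of cKO spleen, and more central memory cells in lymph nodes. It describes the CD45 form without the variable exons as abundant in memory T cells. The part of B cell RNA, or of the mix of naive and memory cells, in the Ptprc values was not tested.

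Smaller shifts were seen in other surface and signaling genes of the list. In Cd3g, a chain of the CD3 complex that was picked after its values were seen, Ψ was 82.7, 82.3 and 82.1% in cKO, against 87.3, 87.6 and 88.6% in Control (24/228 b, ΔΨ = -5.47 points, FDR = 2.47e-05). In Cd47, a ligand of the macrophage receptor SIRPα with exons that vary its cytoplasmic end, Ψ of the 90/108 pair was 17.2, 15.5 and 17.4% in cKO, against 22.4, 19.97 and 23.3% in Control (ΔΨ = -5.21 points, FDR = 4.83e-05). In Arhgap15, a GTPase-activating protein for Rac, 4 events built from exons of 123, 99, 78 and 135 b rose by 1.91 to 3.52 points. Its 99/135 pair was at 2.48, 2.54 and 2.73% in cKO, against 0.522, 0.0783 and 0% in Control (FDR = 1.62e-05), so a form that was almost unseen in Control was present in each cKO library. In the SE events the 99-b exon of Arhgap15 was at 97.8, 97.6 and 98.3% in cKO, against 99.7, 99.9 and 99.6% in Control.

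In the list of the p53 pathway and apoptosis, 50 member events in 19 genes were tested, 1 was called (Mdm4) and 9 in 2 genes passed (18%, against 1.96% of all tested members, with 4 higher and 5 lower). The other 8 belong to Sp100, a protein of nuclear bodies, and 7 of them hold the exon of 51 b or of 75 b. The list was chosen with earlier results of these data known, and the paper had already reported exon skipping in both genes. The share of this list is therefore a description only. The 51/75 pair had a Ψ of 11.4, 11.3 and 9.95% in cKO, against 1.46, 2.57 and 1.13% in Control (ΔΨ = 9.13 points, FDR = 1.26e-11). Its 75-b exon was included at 73.1, 76.6 and 77.2% in cKO, against 86.8, 82.5 and 84.6% in Control in the SE event. For the 54-b exon the SE event was called, at 62.5, 65.5 and 66.1% in cKO, against 86.3, 81.0 and 83.6% in Control, a fall of 18.9 points. The 54/75 pair, whose exons were both lower in cKO in the SE events, had a ΔΨ of -3.81 points and did not pass in any fit that left out 1 library.

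Of 79 tested member events in 38 genes of splicing and RNA-binding factors, none was called and 2 passed (2.53%, against 1.96% of all tested members), both higher. In Hnrnpc Ψ was 29.8, 31.5 and 33.0% in cKO, against 26.0, 20.3 and 23.7% in Control (277/76 b, ΔΨ = 8.12 points, FDR = 8.40e-05, but 0.0176 without Control replicate 2). In Hnrnpa2b1 it was 26.4, 26.3 and 26.1% in cKO, against 22.4, 24 and 23.5% in Control (120/123 b, ΔΨ = 2.97 points, FDR = 0.000231, and 0.0141 without Control replicate 1). Srsf11 missed the threshold (ΔΨ = 3.87 points, FDR = 0.0601). Raly, an RNA-binding protein related to Hnrnpc that stands outside the list and was chosen after its values were seen, had a pair of like build (265/73 b) at 32.9, 34.4 and 35.8% in cKO, against 28.5, 27.5 and 24.9% in Control (FDR = 5.43e-06).

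Among transcription and chromatin regulators, 175 member events in 68 genes were tested and 3 passed (1.71%, against 1.96% of all tested members), all lower (Foxn3, Zhx1 and Lef1), of which 2 were called. Lef1, a transcription factor of the Wnt pathway with a role in T cell development, had a Ψ of 93.5, 92.8 and 93.9% in cKO, against 96.5, 95.6 and 96.2% in Control (133/49 b, ΔΨ = -2.75 points, FDR = 0.00235). Its FDR was 0.0198 without cKO replicate 2, 0.0219 without Control replicate 1 and 0.0221 without Control replicate 3. In the list of cytoskeleton and membrane traffic, 115 member events in 42 genes were tested and 2 passed (1.74%), both of Cd47. Git2, an ARF GTPase-activating protein, had a Ψ of 25.1, 22.7 and 23.4% in cKO, against 29.8, 32.7 and 27.4% in Control (105/249 b, FDR = 0.0107), and its 105-b exon was called in the SE event, at 20.6, 19.1 and 19.8% in cKO, against 29.3, 33.3 and 31.7% in Control. Bin1, which bends membranes, had 14.1, 13.6 and 10.8% in cKO, against 9.85, 9.40 and 8.99% in Control (72/111 b, FDR = 0.0150). Git2 passed without Control replicate 3 (FDR = 0.00813) and Bin1 without cKO replicate 3 (FDR = 0.00093).

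**Figure D2:**
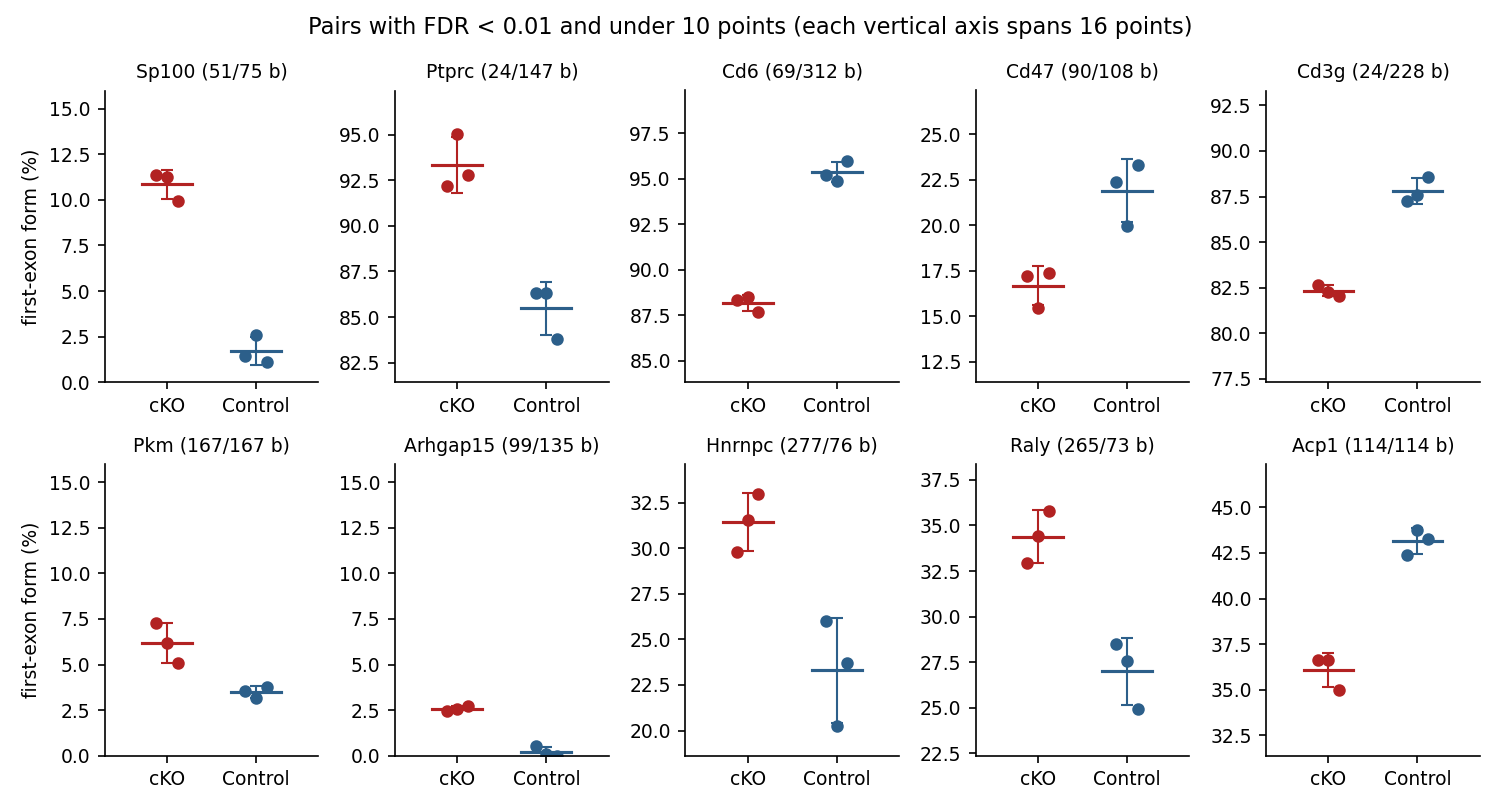
Share of the first-exon form (Ψ, %) by library for 10 pairs with an FDR under 0.01 and under 10 points, with cKO on the left and Control on the right; points are libraries, lines means, bars SD (n = 3 each), and each vertical axis spans 16 points and does not start at 0 in most panels. The groups do not overlap in any of the 10, and the shifts range from 2.38 points in Arhgap15 to 9.13 points in Sp100; Raly, Cd3g and Acp1 were chosen after their values were seen.

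In the list drawn up as textbook genes of mutually exclusive exons, 53 member events in 18 genes were tested, none was called and 11 passed (20.8%, against 1.96% of all tested members). Of these, 10 were events of Ptprc that share reads and 1 was that of Pkm. The paper describes the variable Ptprc exons as cassette exons, not as exclusive ones, so the share of the list says little about exclusive pairs. For 17 of the 18 genes the member with the most reads did not pass, and this includes Ptprc, whose best covered pair (159/135 b) is made of exons that are both kept and lay at 49.7, 49.7 and 48.8% in cKO, against 49.3, 49.1 and 50.1% in Control. Pkm was the exception. Its first exon, which gives PKM1, made up 7.27, 6.16 and 5.10% in cKO, against 3.56, 3.15 and 3.79% in Control (ΔΨ = 2.67 points, FDR = 5.77e-10). PKM2 was thus the main form in every library, and the PKM1 share was higher in each cKO library, with a mean of 16019 reads per library in cKO and 14267 in Control. In the SE event the first Pkm exon was at 3.81, 3.003 and 2.66% in cKO, against 1.76, 1.53 and 2.15% in Control.

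Among the kinases of the list, Mapk8 was at 13.7, 10.8 and 12.4% in cKO, against 4.14, 6.70 and 5.83% in Control, and Mapk9, which encodes JNK2, at 9.84, 11.3 and 10.4% in cKO, against 11.3, 14.4 and 17.4% in Control. The groups did not overlap in either, yet neither passed (FDR = 0.206 for Mapk8 and 0.452 for Mapk9). Mapk8 had a mean of 179 reads per library in cKO and 142 in Control. Mapk14, which encodes p38α, was at 86.6 ± 1.92% in cKO and 88.5 ± 0.812% in Control (SD, n = 3 each, FDR = 0.848). Fyn, a kinase of the T cell receptor pathway with a brain and a T cell exon, was at 1.77 ± 0.945% in cKO and 2.78 ± 1.14% in Control, so the second exon made up nearly all reads in both conditions.

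In genes of the cytoskeleton, Actn1 and Actn4, the α-actinins, took the first exon at 99.6% or above in every library, and Tpm3, a tropomyosin, was at 98.9 ± 0.0711% in cKO and 99.3 ± 0.0139% in Control (FDR = 0.0190). Tpm1 was at 86.7, 87.9 and 96.0% in cKO, against 89.9, 89.1 and 91.2% in Control. The splicing factor U2af1 was at 5.58 ± 0.686% in cKO and 4.37 ± 1.61% in Control. Of the MEF2 transcription factors, Mef2a was at 58.1, 58.6 and 65.5% in cKO, against 65.8, 68.1 and 68.3% in Control (132/138 b, FDR = 0.358), while Mef2c and Mef2d lay above 90% in every library. Slc25a3, the mitochondrial phosphate carrier, was at 0.325% or below in every library, Camk2d at 98.3% or above, Camk2g at 1.23% or below, and Dnm2, whose 150/204 pair is mostly kept together, at 53.4 to 55.8%.

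**Figure D3:**
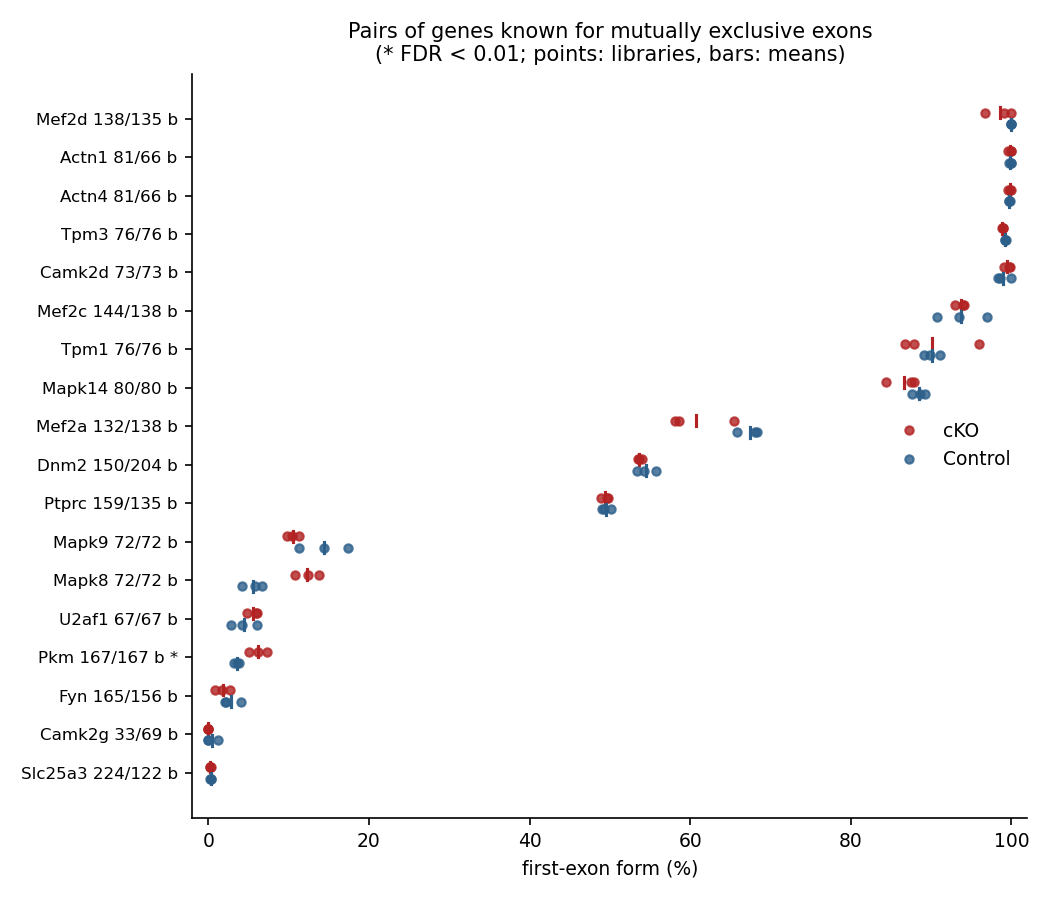
Share of the first-exon form (Ψ, %) in each library for the best covered tested pair of the 18 genes listed for mutually exclusive exons, with cKO above Control for each gene; points are libraries, short bars means, and an asterisk marks an FDR under 0.01. The pairs shown for Ptprc, Dnm2, U2af1 and Camk2g have annotated transcripts with both exons. In all 18 genes the main form was the same in both conditions or both lay near 50%, and Pkm alone carries the asterisk (6.18% in cKO, 3.503% in Control).

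Acp1, a low molecular weight phosphatase, shared 2 features with Pkm that no other passing member had, exons of equal length and no annotated transcript with both, and it is named here after its values were seen. Its Ψ was 36.6, 36.6 and 35.0% in cKO, against 42.4, 43.8 and 43.3% in Control (114/114 b, ΔΨ = -7.06 points, FDR = 0.00796), but it did not pass in any of the 6 fits that left out 1 library, with an FDR of up to 0.0673. Of the 95 tested members that are exclusive in the annotation, these 2 passed and none was called (2.11% passed), against 69 passed and 10 called of the 3528 that are annotated together (1.96% passed). In cKO 9.47% and in Control 15.8% of the first kind lay between 40 and 60%, against 44.1% in cKO and 43.7% in Control of the second.

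Over all 3627 tested members, cKO and Control lay close together. The median ΔΨ was 0.0115 points, the median |ΔΨ| 1.54 points, and 84.4% differed by less than 5 points. In cKO 1564 members and in Control 1557 lay between 40 and 60%, 620 in cKO and 633 in Control lay under 10%, and 392 in cKO and 406 in Control lay over 90%. A difference of at least 10 points that did not pass the test was seen in 111 members. The frame-shifting events were much alike, with a median |ΔΨ| of 1.47 points and 14 called (0.234%), while 66 of 5981 (1.10%) passed. The difference between the 2 shares was not tested, because the events of a gene share reads.

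**Figure D4:**
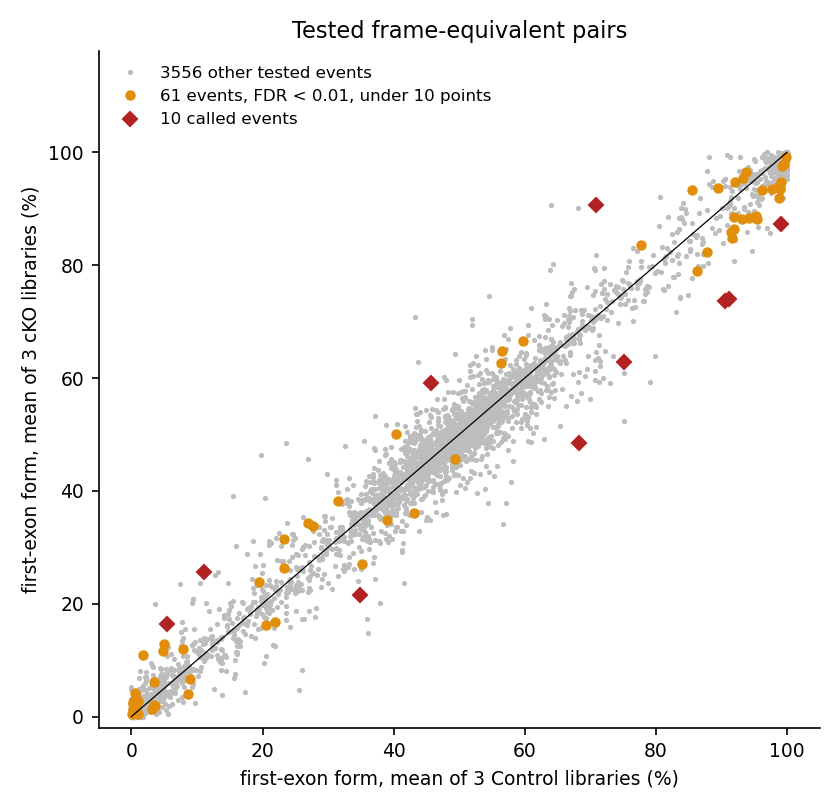
Mean Ψ (%) of 3 cKO libraries (vertical) against that of 3 Control libraries (horizontal) for the 3627 tested members; gray points did not pass, orange points had an FDR under 0.01 and under 10 points (61), red diamonds were called (10), and the line marks equal values. Most members lie on the line, with a dense group between 40 and 60%.

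The passing members were well covered. No member with a mean of 20 to 100 reads passed (564 tested), although the median |ΔΨ| there was 3.52 points. With 100 to 400 reads 6 of 1311 passed (0.458%), with 400 to 1000 reads 14 of 877 (1.596%), and with 1000 reads or more 51 of 875 (5.83%), where the median |ΔΨ| was 0.723 points. The passing members had a median of 2005 reads per library, against 378.5 over all tested members. A pair in a weakly expressed gene that did not pass is therefore not shown to be equal in cKO and Control. The 5 best covered pairs, in H2-D1 (2 pairs), Il2rg, Gm20489 and Ppia, had a ΔΨ between -0.232 and 1.58 points and did not pass. H2-D1 has near-identical copies among the class I genes and Gm20489 overlaps Il2rg, so their reads cannot be assigned for certain, and Ppia passed without cKO replicate 3 (2.55 points, FDR = 0.0048).

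**Figure D5:**
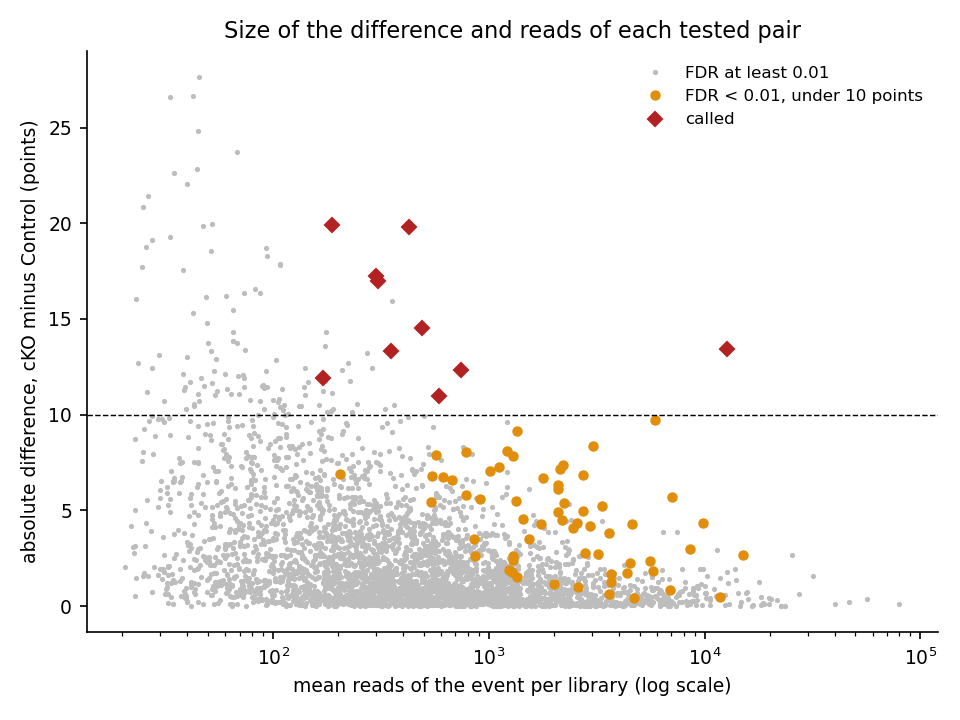
Absolute difference in Ψ between cKO and Control (points, vertical) against the mean reads of the event per library (horizontal, log scale) for each tested member; gray points did not pass, orange points had an FDR under 0.01 and under 10 points, red diamonds were called, and the dashed line marks 10 points. The differences above 20 points were in events with few reads and did not pass, and the orange points lie mostly above 1000 reads.

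The rule allows exon lengths that are both multiples of 3 as well as lengths with the same remainder. With both lengths a multiple of 3 (1985 members), a transcript with either exon, both or none keeps the frame. With a remainder of 1 or 2 (1924 members), the form with both exons is read in another frame after the pair than the form with one. Of the tested members with both lengths a multiple of 3, 56 of 1831 passed (3.06%) and 7 were called, against 15 of 1796 (0.835%) and 3 called (Mdm4, Foxn3 and Rrp36) of those with a remainder. Without Ptprc and Sp100, whose passing events have both lengths a multiple of 3, the counts were 38 of 1788 (2.13%) and 15 of 1796 (0.835%). Median reads per library also differed, at 441 with both lengths a multiple of 3 and 330 with a remainder, and the part of depth in this difference was not tested.

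Equal remainders do not make the second exon readable in the place of the first. For 3305 members the annotation gave a single frame for the first exon, and the second exon was then read directly after the upstream exon of the event. A stop codon (TAA, TAG or TGA) then lay in the second exon or at its edges in 1192 of them (36.1%), in 6.16% of the members with both lengths a multiple of 3 and in 72.0% of those with a remainder. The first exon, read in its own annotated frame, held one in 34. Of the tested members with no stop in either exon, 59 of 1956 in 33 genes passed (3.02%) and 9 were called, against 5 of 1151 in 5 genes (0.434%) and 0 called of those with a stop in either exon. Without Ptprc and Sp100 the counts were 42 of 1915 (2.19%) and 5 of 1151 (0.434%), and with at least 1000 reads per library 44 of 541 (8.13%) and 2 of 240 (0.833%). Mdm4, Inpp4b, Cdc123, Foxn3, Rrp36, Eefsec, Ttc13 and Ms4a4b all belong to the group without a stop. The reading does not cover transcripts that lack the second exon. In Mdm4 the SE events changed at the 68-b exon (25.4% in cKO, 62.9% in Control), whose length is not a multiple of 3. For the short Mdm4 form, made by skipping an exon, the paper reports a premature stop codon. The grouping therefore does not show that the Mdm4 shift is free of stops. The split by stop codons largely repeats the split by remainder. Of the 1151 tested members with a stop, 1038 had a remainder of 1 or 2. Both lengths were a multiple of 3 in 1564 of the 1956 without one. The counts by stop codon describe the exons, since events of a gene share reads and are not independent.

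The SE events showed what the pairs have in common across the 2 readouts, which share exon reads and are therefore not independent. Of 8862 tested SE events at exons of the members 53 were called (0.598%), against 0.495% of all tested SE events, and 51 of the 53 were lower in cKO, as were 159 of the 194 called over all SE events. Over the 71 passing members, the exon that lost share in cKO had a tested SE event in 69, which was lower in cKO in 63 and passed an FDR of 0.01 in 34, in 19 genes, all of them lower. The exon that gained share was lower in 46 of 70 SE events, of which 11 passed, and 3 passed with a higher level. In the 10 called members, the median SE difference was -10.0 points for the exon that lost share and -0.341 points for the exon that gained it. Exons were sorted here by the shift in the pairs themselves, and gaining exons that lay near 100% in Control, such as those of Mdm4, Inpp4b, Cdc123 and Foxn3, had little room for a higher level, so the 2 medians are a description only.

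In expression, Cd2bp2 stood at 884, 874 and 738 normalized counts in cKO, against 2624, 2602 and 2612 in Control (log2 fold change -1.65). Of the 1916 genes with a tested member and a tested expression value, 7 were called at an adjusted p (limma) under 0.05 and a |log2 fold change| above 1 (0.365%), against 0.564% of all 11001 tested genes. Of the 43 genes with a passing member 0 were called by limma, edgeR or DESeq2. At an adjusted p under 0.05 and any size, limma and edgeR counted 0 of them and DESeq2 7, and at an unadjusted p under 0.05 limma counted 9 and edgeR and DESeq2 11 each. Their log2 fold changes ran from -0.53 to 0.35, with -0.05 for Mdm4, -0.19 for Inpp4b, 0.27 for Cdc123, 0.00 for Foxn3, 0.04 for Cd6 and -0.07 for Pkm. Sp100 was among the 7 of DESeq2 (log2 fold change -0.38, DESeq2 adjusted p = 0.0058).

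Reads in genes were 69981159 to 82286366 per library in cKO and 56995121 to 75606222 in Control. The labelled cell type was checked on 7 markers of CD4+ T cells (Cd3e, Cd3d, Cd3g, Cd4, Lck, Cd28 and Il7r), whose summed normalized counts were 385970 to 417557 in cKO and 405028 to 471882 in Control. Markers of other cells were much lower. The sums were 614 to 916 in cKO and 710 to 1571 in Control for the 2 CD8+ T cell markers, 2786 to 5291 in cKO and 6213 to 9154 in Control for the B cell markers, and 5088 to 7097 in cKO and 3066 to 4485 in Control for the 3 NK cell markers. The library KO_7.8 stood apart, with 14316 for the 6 myeloid markers and 8950 for the 4 cell cycle markers, while the other libraries had at most 3573 and 3767. The 3 erythroid markers found were high in KO_7.8 (2626) and CTRL_5.6 (3494), with 140 to 423 in the other libraries. The part of other cell types, or of the mix of naive and memory T cells, in the exon levels was not tested. Since the splicing values carry no library names, KO_7.8 cannot be picked out among them, and the fits without each library in turn include the one without it.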

How the data were processed

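RNA of CD4+ T cells of 3 cKO and 3 Control mice was sequenced (NovaSeq 6000, paired reads). The authors trimmed with cutadapt 1.18, aligned to GRCm38 with STAR 2.7.1a and counted splicing events with rMATS 4.0.2. The deposited MXE and SE tables hold read counts of each form from junctions and exon bodies, 3 per condition, with effective form lengths (exon length + 149). The deposited expression signal is the featureCounts count divided by a DESeq2 size factor, and 100% of values were whole reads within 0.01 after that factor was undone. The authors' own fold changes, p-values and FDR columns were not used.

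A quasi-binomial model of the counts was fitted to every event with 20 or more reads on average per library in each condition, with the dispersion moderated by limma 3.58.1 (R 4.3.3; prior 1.95 from 7870 events whose rarer form had at least 5 reads per library, floor 1) and Benjamini-Hochberg adjustment over all 9608 MXE or all SE events. Called means an FDR under 0.01 and at least 10 points, passed an FDR under 0.01. The study's methods give the inclusion difference as Control minus cKO, so the first condition of the tables was taken as Control. Expression was tested with limma on log2(normalized count + 1), for genes that averaged 100 or more in cKO or in Control. This scale understates changes of low genes. edgeR 4.0.16 on the whole reads called 61 genes and DESeq2 1.42.0 called 236, against 62 by limma. The quasi-binomial model and the limma expression model were each run on simulated data, and the outcome is not reported here. Exons were matched to GENCODE M21.

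Members, gene lists and named pairs were chosen with earlier results of these data known. Named were all called pairs, the best covered pair of each textbook gene, up to 3 genes of smallest p per list, the 5 best covered pairs, Cd2bp2 and the markers, of which 1 is not reported here. The p-values cover the spread among these mice only. No 2 libraries of a condition agreed within sampling noise (chi-square per degree of freedom at least 16.4).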

Additional observations from a re-analysis of the deposited data

How the results depend on the processing

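The number of called members was 10 and stayed between 7 and 12 with a read minimum of 10, 50 or none, the other dispersion priors (over all tested events, or with a trend over reads), levels without lengths and 1 event per exon pair. The members were not the same in each: without lengths Zhx1 (-8.70 points), Rrp36 (-9.17) and Eefsec (4.93) were lost and Cd6 (-12.7) and Ptprc 24/147 (11.6) gained, with the prior over all events Ms4a4b was lost (FDR = 0.0516), with the trend Rap1gds1 and Zbtb20 were gained, and with 1 event per exon pair Cdc123 and Eefsec were lost. The number called was 8 to 11 without 1 library. The trend prior, the alternatives for members passing at any size and those for SE events were chosen after seeing the data. The number called was 20 at an FDR of 0.05, 36 at 5 points, 0 at 20 points and 0 under limma on the logit. Members that passed an FDR of 0.01 at any size numbered 71, 42 with 1 event per exon pair, 122 at an FDR of 0.05, 0 under limma on the logit and 49 to 69 without 1 library. Limma on the logit also called 0 of all MXE events (24 in the count model), 0 frame-shifting events (14) and 0 SE events at member exons (53). Without 1 library, called events numbered 17 to 29 in the whole file, 7 to 18 among frame-shifting events and 36 to 55 among SE events at member exons. With the dispersion prior over all tested events 103 SE events at member exons were called. The cause of these differences was not tested. The 7 called genes with a member became 5 to 6 without 1 library and 6 to 10 under the other expression settings. No named pair that passed changed its sign. Of the 44 named pairs, 10 that did not pass did so without 1 library, all with a |ΔΨ| of at most 1.58 points. Depth limits what can be seen, since no member under 100 reads passed. No paired analysis was possible because the labels share no replicate numbers between conditions and the splicing values carry no library names.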
